A study of Mus musculus with 30 samples.

Results

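Hippocampal gene expression in mice heterozygous for Nf1 was compared between P28-P32 and P18-P20 (P, postnatal day), the last span of ages in a series of 30 mouse arrays. The comparison used 7 of the 30 arrays: 3 heterozygous pools at P28-P32 (P28 1a, P28 1b and P32 1a) set against 4 heterozygous pools at P18-P20 (P18 1a, P18 1b, P20 1a and P20 1b), chosen by genotype and age alone. The same span in wild type, with 4 pools at P28-P32 and 4 at P18-P20, served only to show where heterozygotes differed. Pups were males from matings between C57BL/6 and Nf1 heterozygous mice, so wild-type and heterozygous pups had parents of the same kinds. The age range P28-P32 held 2 heterozygous pools of P28 and 1 of P32, against 2 pools each of P18 and P20. Each pool combined the hippocampi of 2 pups of 1 genotype, and the labels name no treatment. The labels name no Nf1 allele, litter or processing day, so the p-values cover the spread between pools alone.

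Total RNA had been hybridised to single-colour MG-U74Av2 arrays with 12488 probe sets, of which 66 were controls and 12422 were tested. Values are intensities on a linear scale as the authors deposited them, and changes are log2 differences (P28-P32 minus P18-P20) after values under 1 were set to 1. A probe set was called when the limma test gave a Benjamini-Hochberg adjusted p below 0.05 over all 12422. In bulk tissue, fewer cells of a type and less RNA per cell cannot be told apart.

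Neurofibromin, the product of Nf1, is a GTPase-activating protein that switches Ras to its inactive state. Over these weeks the rodent hippocampus loses markers of newly formed neurons, oligodendrocytes complete much of their myelin, astrocytes mature, and ion channels and synaptic proteins take on adult composition. Loss of 1 copy of Nf1 models the human disorder neurofibromatosis type 1, in which learning difficulties are common.

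The heterozygous P18 pool 1b stood apart from the other 6. Its log2 values correlated with theirs at 0.924 to 0.948 across probe sets, while the 15 other pairs correlated at 0.947 to 0.979. Its 3-prime over 5-prime ratio (log2) was 0.48 for Gapdh controls and 1.14 for Actb controls, against at most 0.17 and 0.56 in the other 6, a measure that goes up as RNA breaks down. In heterozygotes that Gapdh ratio lay at -0.14 to 0.05 at P28-P32 and at -0.05 to 0.48 at P18-P20. In wild type it lay at -0.01 to 0.15 in the P28-P32 pools and at -0.33 to -0.23 in the P18-P20 pools, with no overlap between the ages. The 16 measured markers of hippocampal principal neurons summed to 9203 to 10066 at P28-P32 and 9844 to 10113 at P18-P20, and 15 of the 16 were bright (mean log2 intensity in the upper 60 percent of probe sets, above an intensity of 30.8). The 10 measured thalamic markers summed to 1197 to 1248 at P28-P32 and 1161 to 1372 at P18-P20. Choroid plexus markers, by contrast, varied from pool to pool: the 6 measured summed to 399 to 4990 at P28-P32 and 1168 to 2585 at P18-P20.

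Nf1 itself (chromosome 11, 79339590 to 79581609, GRCm38.p6) was dim. Its single probe set read 5.89, 12.4 and 3.44 in the P28-P32 heterozygous pools and 5.09, 10.1, 2.92 and 2.19 in the P18-P20 heterozygous pools. These ranges overlapped, and the change of 0.57 was not called (adjusted p 0.807). Since neither the allele nor the position of the probes on it is stated, this probe set does not check the labels.

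In heterozygotes 105 of 12422 probe sets (0.845%) changed, 47 higher (0.378%) and 58 lower (0.467%) at P28-P32. They named 96 genes. The largest called rises among bright genes included Anp32a, a nuclear inhibitor of protein phosphatase 2A, Commd3, a subunit of an endosomal recycling complex, Ndrg1 and Qdpr, both high in oligodendrocytes, and Gfap, the intermediate filament of astrocytes. The largest called falls included Cacna1a and Kcna1, which encode a calcium and a potassium channel, Fgf13, an intracellular partner of sodium channels, and the neuronal transcription factors Mef2c and Sox11. Of the 105, 26 changed over 2-fold, 9 higher and 17 lower, and 98 had pools of the 2 ages that did not overlap. Over all probe sets 1284 (10.3%) had pools that did not overlap, 585 (4.71%) with every P28-P32 pool above and 699 (5.63%) with every P28-P32 pool below.

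The count rested on few pools. It was 21 without P28 pool 1a, 68 without P28 pool 1b, 50 without P32 pool 1a and 247 without P18 pool 1b. Fitted on the 7 heterozygous pools alone, limma called 2 probe sets, those of Anp32a and Qdpr, while 1072 had an unadjusted p below 0.05. With all 30 arrays in the fit, 1639 (13.2%) had an unadjusted p below 0.05.

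Promoter sequence is shown for Anp32a, Commd3, Qdpr and Mthfd2, rises that kept their call in at least 17 of 18 alternative settings and had 1 start each in the RefSeq table of GRCm38.p6. Of the falls that did so, Fgf13 had 4 listed starts and Mef2c 3, and Mapk8ip1 is named only. The 120 bases before each start are written 5′ to 3′ on the strand of the gene, with matches of GGGCGG (the GC box), CCAAT (the element bound by factor NF-Y) and TATAAA (the TATA box) in capitals on either strand, no motif overlapping another. The intervals are chr9:62341223-62341342 on the plus strand for Anp32a, chr2:18672315-18672434 on the plus strand for Commd3, chr5:45450230-45450349 on the minus strand for Qdpr and chr6:83317605-83317724 on the minus strand for Mthfd2.
Anp32a: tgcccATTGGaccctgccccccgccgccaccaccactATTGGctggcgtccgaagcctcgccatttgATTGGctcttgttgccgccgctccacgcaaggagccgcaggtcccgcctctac
Commd3: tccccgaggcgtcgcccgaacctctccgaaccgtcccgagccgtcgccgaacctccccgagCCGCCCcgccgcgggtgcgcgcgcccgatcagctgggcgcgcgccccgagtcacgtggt
Qdpr: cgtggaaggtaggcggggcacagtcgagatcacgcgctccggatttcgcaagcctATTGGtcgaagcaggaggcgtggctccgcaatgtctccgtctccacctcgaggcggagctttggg
Mthfd2: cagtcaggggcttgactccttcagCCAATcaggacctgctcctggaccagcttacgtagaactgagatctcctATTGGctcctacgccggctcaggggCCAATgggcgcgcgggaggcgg

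The CCAAT motif occurred 3 times before Anp32a, 3 times before Mthfd2, once before Qdpr and 0 times before Commd3, which held 1 GC box. Windows of the same length before all 32851 listed starts held the CCAAT motif in 21.3%, a GC box in 26.5% and a TATA box in 6.34%. No TATA box lay in the 4 windows shown. The Mthfd2 window lies before its listed start but inside the span listed for the gene (chromosome 6, 83305704 to 83326011). Its matches are therefore not upstream of that whole span. The windows of Anp32a, Commd3 and Qdpr adjoin the spans of their genes.

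Among the rises, Anp32a (chromosome 9, 62341343 to 62378804) read 332, 298 and 232 at P28-P32 and 49.4, 48.8, 33.5 and 23.1 at P18-P20. All 3 later pools lay far above the 4 earlier ones. The change was 2.94, SE 0.41, adjusted p 0.000229, a 7.7-fold rise, and it kept its call in all 18 alternatives. A second, brighter probe set of Anp32a gave a difference of 0.04 (adjusted p 0.919), so the 2 probe sets disagree.

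Commd3 (chromosome 2, 18672435 to 18676231) read 59.1, 62.1 and 66.2 at P28-P32 and 7.68, 9.55, 25.6 and 11.7 at P18-P20. The later pools were tightly grouped and above every earlier pool. The change was 2.36, SE 0.35, adjusted p 0.000548.

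Qdpr (chromosome 5, 45434032 to 45450229) encodes quinoid dihydropteridine reductase, which regenerates the cofactor of the aromatic amino acid hydroxylases. Its intensity was 1575, 1577 and 1366 at P28-P32 and 634, 733, 727 and 760.1 at P18-P20, with a change of 1.08, SE 0.15, adjusted p 0.000229. Both ages were compact, separated by a gap larger than the spread of either. Qdpr kept its call in all 18 alternatives, with changes of 1.02 to 1.15.

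Ndrg1, a stress-regulated protein needed for the upkeep of peripheral myelin, read 612, 644 and 629 at P28-P32 and 257, 240.0, 347 and 366 at P18-P20. Its change of 1.08, SE 0.20, adjusted p 0.0047 came with a second probe set that also rose (0.69, adjusted p 0.028). In neither probe set did the pools overlap.

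Gfap (chromosome 11, 102887336 to 102897200) read 606, 606 and 490.1 at P28-P32 and 332, 313, 311 and 223 at P18-P20. The later pools were all higher, and the change was 0.95, SE 0.22, adjusted p 0.0348. A dimmer probe set of Gfap differed by 0.67 with pools that did not overlap, but it was not called (adjusted p 0.0584). The call was lost in 8 of 18 alternatives, among them the fits without P20 pool 1a, P20 pool 1b, P28 pool 1a, P28 pool 1b and P32 pool 1a (adjusted p 0.0511, 0.0909, 0.177, 0.128 and 0.0666).

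Metabolic enzymes were also among the rises. Mthfd2, an enzyme of mitochondrial folate metabolism, read 187, 199 and 194 at P28-P32 and 104, 116, 109.7 and 95.2 at P18-P20, a change of 0.87, SE 0.15, adjusted p 0.00249 between narrow, separate groups. Echs1, an enoyl-CoA hydratase of mitochondrial fatty acid oxidation, read 246, 215 and 213 at P28-P32 and 157, 101, 135 and 108 at P18-P20. Its groups did not overlap either, and its change was 0.87. Acot8, a peroxisomal thioesterase, read 52, 52.2 and 64.9 at P28-P32 and 41.1, 19.4, 31.2 and 21.6 at P18-P20 and changed by 1.05. Hk1, the hexokinase that opens glycolysis in brain, read 1291, 2054 and 1673 at P28-P32 and 1295, 689, 756 and 842 at P18-P20. Its change of 0.92 was called (adjusted p 0.0194), although P18 pool 1a reached the level of P28 pool 1a.

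The remaining rises named by rank were Actb, Iglc1 and Fbxw11. Actb, cytoplasmic beta-actin, read 173, 248 and 184 at P28-P32 and 149, 27.8, 71.2 and 67.7 at P18-P20 in a probe set whose suffix marks probes shared between transcripts, a change of 1.58. P18 pool 1b was its lowest value, and a second Actb probe set gave 1.10 without a call. Iglc1, an immunoglobulin lambda constant region, was near the lower end of the bright range at 62.3, 45.3 and 38.9 at P28-P32 and 23.6, 20.6, 36.8 and 22.3 at P18-P20, a change of 0.93. Fbxw11, a substrate receptor of a ubiquitin ligase, read 326, 359 and 304 at P28-P32 and 206, 129, 186 and 232 at P18-P20, a change of 0.84, while its second probe set gave 0.18 and was not called. Pools of the 2 ages did not overlap for the called probe sets of all 3 genes.

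Among the falls, Fgf13 (chromosome X, 59062139 to 59585572) had the smallest p of the whole comparison. It read 44.9, 55.4 and 36.7 at P28-P32 and 178, 89.8, 132 and 153 at P18-P20, a change of -1.58, SE 0.18, adjusted p 1.69e-05. Every later pool lay below every earlier one. Its call was lost only when the 7 pools were fitted alone (adjusted p 0.17), with the size of the fall unchanged.

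Mapk8ip1, a scaffold that assembles the JNK kinase cascade, read 279.6, 274 and 213 at P28-P32 and 741, 529.5, 632 and 510.0 at P18-P20, a change of -1.23, SE 0.17, adjusted p 0.000229. Mef2c, a transcription factor of neurons and muscle, read 147, 143 and 158 at P28-P32 and 335, 238, 364 and 507 at P18-P20, a change of -1.23, SE 0.21, adjusted p 0.00219. The later pools were lower throughout for both genes. A second Mapk8ip1 probe set gave -0.40, and 3 other Mef2c probe sets gave -0.74, -0.50 and -0.32, none of them called.

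Kcna1 (chromosome 6, 126636463 to 126645801), the axonal potassium channel Kv1.1, read 199, 199 and 137 at P28-P32 and 324, 493, 489.8 and 396 at P18-P20, a change of -1.25, SE 0.29, adjusted p 0.028. All later pools were lower, and the call was lost in 8 of 18 alternatives, including each fit that left out a P28-P32 pool and the fit that took the Gapdh ratio into account. Cacna1a, the pore of P/Q-type calcium channels, had the largest fall by size (-2.13) but uneven pools, at 3.68, 37.7 and 9.02 at P28-P32 and 103, 39.6, 28 and 43.7 at P18-P20. P28 pool 1b lay above P20 pool 1a, and the call was lost in 11 of 18 alternatives, including the fit without P28 pool 1a (-1.36, adjusted p 0.304).

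Sox11 (chromosome 12, 27334268 to 27342718), a transcription factor of newly formed neurons, had 2 probe sets. The called one, whose suffix marks probes shared within a sequence family, may not read Sox11 alone. It read 22.8, 16.3 and 24.8 at P28-P32 and 34, 76.5, 41.7 and 51 at P18-P20, a change of -1.21, SE 0.28, adjusted p 0.0348. The brighter one read 187, 192 and 237 at P28-P32 and 318, 651, 324 and 310.4 at P18-P20, a change of -0.89 that narrowly missed the threshold (adjusted p 0.0565). In both, the pools did not overlap and P18 pool 1b was the highest, and without that pool the called probe set gave -0.99 (adjusted p 0.0639). Its call was lost in 12 of 18 alternatives, among them quantile normalization, log2(value + 32) and the fits without P28 pool 1a, P28 pool 1b or P32 pool 1a.

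Of the other falls named by rank, Slc27a1, a fatty acid transporter, read 61.4, 109.9 and 95.6 at P28-P32 and 323, 137, 181 and 217 at P18-P20, a change of -1.24. Ywhag, the gamma 14-3-3 protein, overlapped at 42.9, 88.7 and 30.5 at P28-P32 and 237, 78.8, 63.5 and 168 at P18-P20, a change of -1.28, and its much brighter second probe set gave 0.18 (adjusted p 0.536). The 2 Ywhag probe sets differ in sign, and of them only the dimmer was called. Vax1, a homeobox factor of the ventral forebrain, read 12.2, 33.7 and 14.7 at P28-P32 and 46.7, 57.4, 50.7 and 45.2 at P18-P20, a change of -1.45. Mau2, a loader of cohesin, read 30.5, 61.6 and 30.7 at P28-P32 and 72.4, 123, 111 and 111 at P18-P20, a change of -1.40. Mtmr14, a phosphoinositide phosphatase, changed by -1.21, with 19.6, 12.4 and 31.1 at P28-P32 and 37.4, 57.1, 39.6 and 50.3 at P18-P20. Nfatc3, a transcription factor activated by calcineurin, read 25.8, 22.4 and 16.9 at P28-P32 and 38.2, 53.8, 51.7 and 50.6 at P18-P20, a change of -1.17. Among these 6 genes, pools overlapped for Ywhag alone. A second, brighter probe set of Mtmr14 gave -0.18 and was not called.

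**Figure D1:**
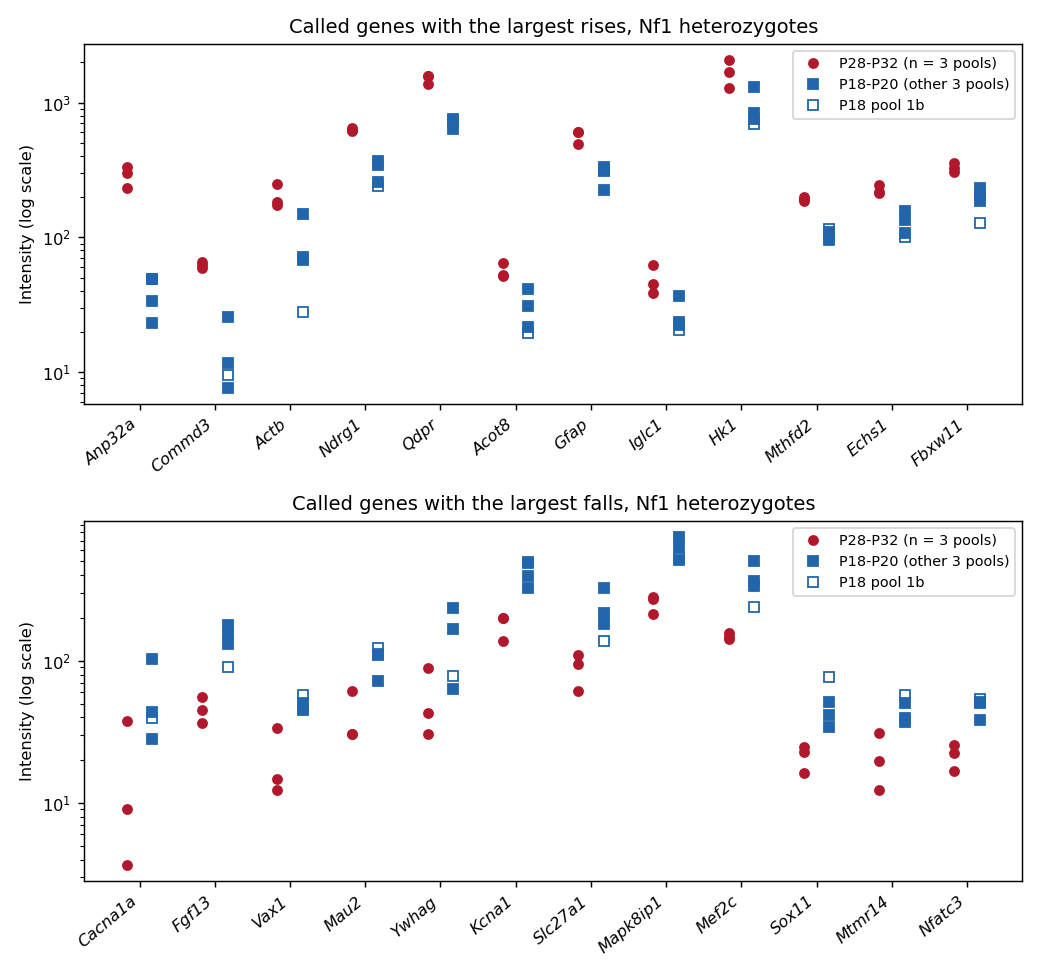
Intensity (log scale) of the 12 called genes with the largest rises (top) and the 12 with the largest falls (bottom) in each heterozygous pool, with circles for the 3 P28-P32 pools, filled squares for 3 of the P18-P20 pools and open squares for P18 pool 1b. The 2 ages separate for most genes, and they overlap for Hk1, Cacna1a and Ywhag.

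Levels at younger ages show how these changes lie in development. In geometric means of heterozygous pools at P10, P15, P18-P20 and P28-P32, Qdpr read 491, 678, 712 and 1502, Npy 650.5, 779.7, 794 and 485 and Sox4 264, 124, 139.7 and 66.4. Fgf13 read 242, 168, 134 and 45 in the same order. Qdpr was highest and the other 3 lowest at P28-P32, beyond all 12 younger heterozygous pools. Anp32a instead read 139.7, 177, 37 and 284, with P18-P20 as its low point. P18-P20 was also the lowest of these age ranges for Commd3, Actb, Acot8, Iglc1, Hk1, Fbxw11, Mthfd2 and, by little, Gfap. Actb read 395, 572, 66.8 and 199, and Hk1 1818, 1572, 868 and 1643. For Actb and Iglc1 the P28-P32 mean stayed below those of P10 and P15. Conversely, P18-P20 was the highest age range for Kcna1, Slc27a1, Mau2 and, by little, Mef2c, but not for the other falls named by rank. Kcna1 read 148, 215, 420 and 176, so its P28-P32 mean stayed above that of P10. Adk, Peg3, Cacna1c and Wdr26, also called falls, were highest at P18-P20 too, while L1cam and Dpysl4 were not. Of the 12 rises named by rank, 6 had all P28-P32 pools above all 12 younger pools. Of the 47 called rises, 27 had all 3 P28-P32 pools above all 12 younger pools, and of the 58 called falls, 33 had all 3 below. Over all 12422 probe sets 202 (1.63%) had the P28-P32 pools above and 203 (1.63%) below all younger pools. Among probe sets whose P28-P32 and P18-P20 pools did not overlap, called or not, the counts were 202 of 585 above (34.5%) and 203 of 699 below (29%). No test was made of the called probe sets against these shares. For the others at least 1 younger pool reached or passed the P28-P32 pools.

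**Figure D2:**
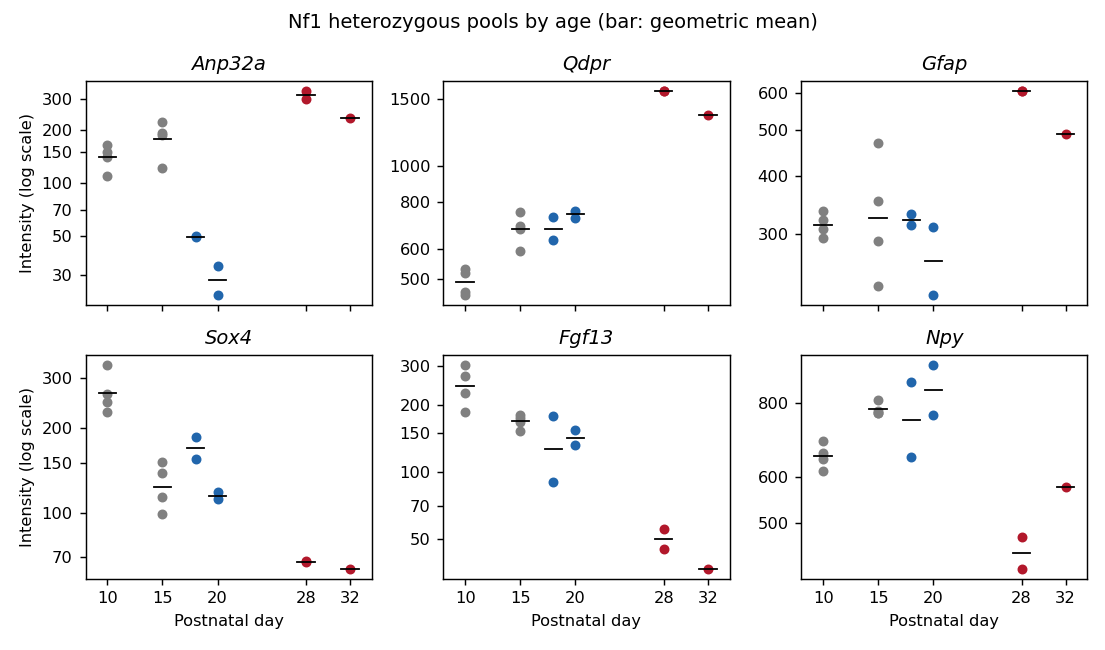
Intensity (log scale) of 6 called genes in every heterozygous pool by postnatal day, with a bar at the geometric mean of each day (red, P28-P32; blue, P18-P20; grey, younger ages). Qdpr and Gfap are highest at P28-P32, Sox4, Fgf13 and Npy lowest, and Anp32a dips at P18-P20.

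Genes of immature neurons and growth cones were mostly lower at P28-P32. Of 26 measured, 22 were lower and 3 fell (L1cam, Dpysl4 and Stmn4), 0 rose, and 11 had every P28-P32 pool below every P18-P20 pool. The median change was -0.37, against -0.02 over 8251 genes, of which 36 rose and 46 fell. Over these 8251 genes 4342 were lower, and 486 had every P28-P32 pool below every P18-P20 pool. L1cam, an adhesion molecule of growing axons, read 31.7, 27.6 and 20.6 at P28-P32 and 81.3, 36.2, 40.4 and 51.6 at P18-P20, a change of -0.92. Dpysl4, a collapsin response mediator protein, read 142, 151 and 205 at P28-P32 and 341, 239.7, 268 and 317 at P18-P20, a change of -0.82, SE 0.15, adjusted p 0.0047. Stmn4, a stathmin that binds tubulin, read 689.7, 675 and 727 at P28-P32 and 943, 953, 864 and 1090.5 at P18-P20, a change of -0.46. For these 3 genes no pools of the 2 ages overlapped. Dcx, a microtubule protein of migrating neurons, differed by -0.66, Igfbpl1 by -0.68 and Cd24a by -0.61, none called. Sox4, the close relative of Sox11, read 67.4, 67.9 and 64 at P28-P32 and 185, 155, 112 and 118 at P18-P20 in a called probe set (change -1.07, SE 0.18, adjusted p 0.00166), while its brighter probe set, which stands for it in the list, gave -0.46 (adjusted p 0.179). Without P18 pool 1b the list still had 3 called falls and a median of -0.36. Here and below, lists were recounted for this omission alone, which gave the most calls of any single pool left out (247). Calls over all probe sets numbered 21, 68 and 50 without P28 pool 1a, P28 pool 1b and P32 pool 1a. List calls lost in those fits were not counted.

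Oligodendrocyte genes gave a split picture. Of 11 measured oligodendrocyte enzymes and carriers, Qdpr rose and Sirt2 fell, 7 were higher, and the median change was 0.49. Over all 8251 genes 36 rose and 46 fell by call, and 3908 were higher and 4342 lower. Sirt2, a deacetylase found in myelin, read 711, 696 and 773 at P28-P32 and 1275, 1027, 1181 and 1195 at P18-P20, a change of -0.68, SE 0.17, adjusted p 0.0384, with no overlap. Apod, a lipid carrier, differed by 0.97 and Ugt8a, which makes galactosylceramide, by -0.76, neither called. The 10 measured myelin proteins had 0 rises, 0 falls and a median of 0.18: Mbp differed by -0.19, Mag by 0.21 and Pmp22 by 0.31, all with overlapping pools. Only 1 myelin gene had an unadjusted p below 0.05, against 1201 of all 8251 genes. The 11 lineage regulators also had no call, with 10 lower and a median of -0.12. Without P18 pool 1b, Car2, a carbonic anhydrase of oligodendrocytes, also rose (0.60, adjusted p 0.013).

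Of 18 astrocyte genes Gfap rose, 0 fell, and 9 were higher and 9 lower, with a median of -0.02. All 8251 genes together had 36 rises and 46 falls. Glul, glutamine synthetase, differed by 0.54 and Slc1a2, the main glutamate transporter, by -0.53, neither called. Microglial and complement genes (18 measured), endothelial genes (15), mural and fibroblast genes (19), blood genes (5) and choroid plexus genes (6) had no call. Without P18 pool 1b the endothelial list held 1, a rise of Itm2a (0.55). Their summed levels overlapped between the ages: microglial and complement genes reached 2996 to 3284 at P28-P32 and 2623 to 3236 at P18-P20, and blood genes 1804 to 2744 at P28-P32 and 1875 to 4914 at P18-P20.

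Voltage-gated channels had 3 falls and 0 rises among 29 measured, with a median of -0.17, against 36 rises, 46 falls and a median of -0.02 over 8251 genes. Besides Cacna1a and Kcna1, whose calls depended on single pools as given above, Cacna1c, the pore of an L-type calcium channel, fell: it read 156, 154 and 174 at P28-P32 and 214, 264, 242 and 212 at P18-P20, a change of -0.53, SE 0.11, adjusted p 0.0194. Its pools did not overlap. Without P18 pool 1b the falls in this list numbered 5, with the potassium channels Kcna6 (-1.44) and Kcnj4 (-0.75) added. Interneuron markers and neuropeptides had 1 fall among 25 measured, 20 of them lower, with a median of -0.17. Over all 8251 genes 4342 were lower. Npy (chromosome 6, 49822710 to 49829507), neuropeptide Y, read 419, 473 and 576 at P28-P32 and 866, 648, 763 and 926 at P18-P20, a change of -0.71, SE 0.15, adjusted p 0.0165. The later pools were all lower. Cort, cortistatin, differed by -0.81, Adcyap1, the peptide PACAP, by -0.81, and Vip by 0.71, none called.

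Of 23 synaptic vesicle and release genes, 1 rose and 0 fell, with a median of -0.07, against 36 rises and 46 falls over 8251 genes. Cplx2, a complexin that clamps vesicle fusion, read 377, 392 and 324 at P28-P32 and 235, 183, 278 and 171 at P18-P20, a change of 0.77, SE 0.15, adjusted p 0.00769, and its pools did not overlap. Vamp1, a vesicle SNARE, differed by -0.69 and Syt1, the calcium sensor of release, by -0.58, neither called. Glutamate receptors and postsynaptic proteins (20 measured) and GABA and glycine transmission genes (18) had 0 calls, with medians of -0.14 and 0.09. Without P18 pool 1b, Grik5, a kainate receptor subunit, fell (-0.85), as did Icam5, a dendritic adhesion molecule (-0.49), and Syp, the vesicle protein synaptophysin (-0.79), while Glrb, the beta subunit of the glycine receptor, rose (0.57).

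The Ras and MAP kinase pathway, which neurofibromin restrains, had 0 rises and 0 falls among 36 measured genes, 18 higher and 18 lower, and a median of 0.01. In this list 9 genes had an unadjusted p below 0.05, against 1201 of all 8251 genes. Calls were few over those 8251 genes as well, with 36 rises and 46 falls. Ksr1, a scaffold of that cascade, differed by -0.63 and Mras by 0.51, neither called. Immediate early genes (23 measured) had no call and 0 unadjusted p below 0.05.

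Housekeeping lists held a few rises. Of 33 ribosomal protein genes Rps19 and Rps3 rose, with a list median of 0.04. Rps19 read 799, 776 and 907 at P28-P32 and 449, 516, 446 and 446 at P18-P20 (change 0.83, SE 0.17, adjusted p 0.0136), and Rps3 changed by 0.58. Of 37 proteasome genes Psmb4 rose (0.39), with a median of 0.10. Hk1 was the only call among 18 glycolysis and lactate genes, where 10 had an unadjusted p below 0.05 and the median was 0.06. Over all 8251 genes 1201 had an unadjusted p below 0.05, and 36 rose and 46 fell by call. The 69 oxidative phosphorylation genes had no call and a median of 0.01. Of 27 tubulin and microtubule-associated genes Mapre2, a protein of growing microtubule ends, fell: it read 246, 242 and 275 at P28-P32 and 389, 425, 369 and 319 at P18-P20, a change of -0.56. Without P18 pool 1b, Map2, a microtubule protein of dendrites, fell (adjusted p 0.0263), as did Atp5l of ATP synthase (-0.39) and Uqcr11 of respiratory complex III (-0.84), and Psmb1 of the proteasome rose (0.47).

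**Figure D3:**
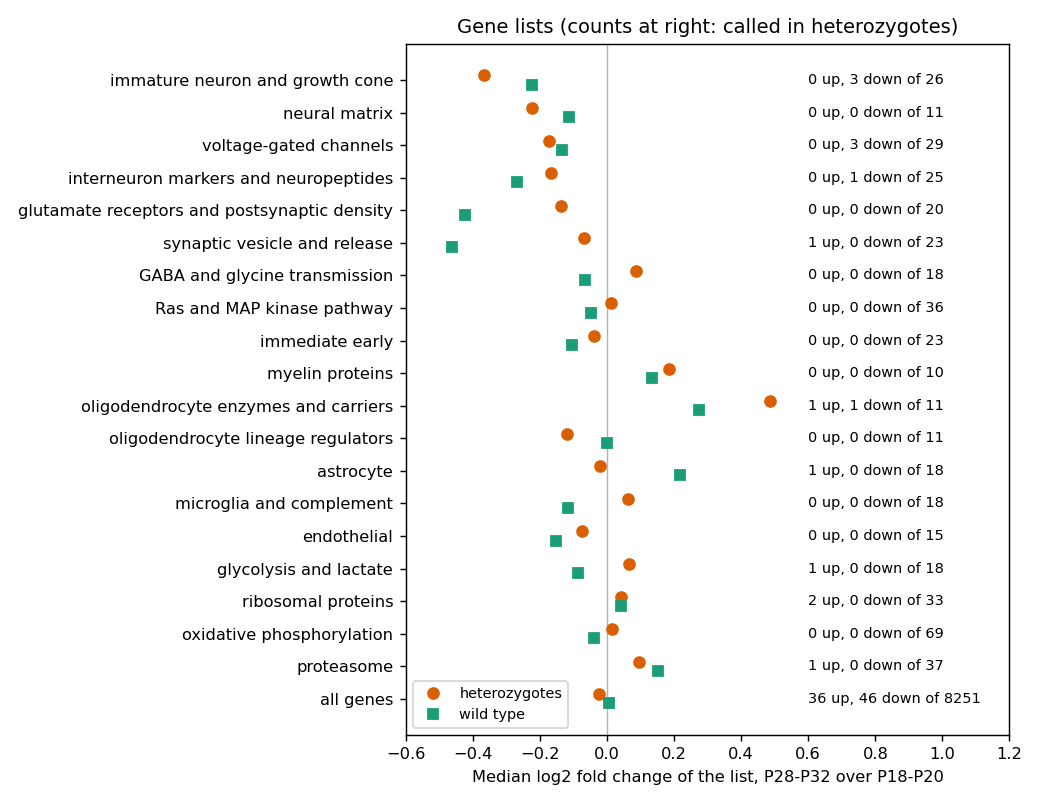
Median log2 fold change (P28-P32 over P18-P20) of the gene lists named on the axis in heterozygotes (circles) and wild type (squares), with the number of genes called up and down in heterozygotes at right. Immature neuron genes have the lowest heterozygous median (-0.37) and oligodendrocyte enzymes and carriers the highest (0.49) among the lists drawn. Of the lists not drawn, striatal markers (6 genes, -0.43) and blood genes (5 genes, -0.39) have lower medians and no call.

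Further called genes were singled out after their values were seen. Adk, adenosine kinase, read 356, 401 and 447 at P28-P32 and 639.7, 983, 612 and 774 at P18-P20, a change of -0.89, SE 0.13, adjusted p 0.000645. Copb2, a coat protein of Golgi vesicles, read 557, 634 and 419 at P28-P32 and 701, 1229, 1149 and 1089 at P18-P20, a change of -0.95. Pkia, an inhibitor of protein kinase A, read 93.5, 103 and 103 at P28-P32 and 284, 256, 159 and 174 at P18-P20, a change of -1.08. In each of these 3 genes all later pools were lower. Sstr2, a somatostatin receptor, fell by 0.73 and Plat, tissue plasminogen activator, changed by -0.83. Pafah1b1 (LIS1), a dynein regulator needed for neuronal migration, changed by -0.45. Upward, Cbx5, a heterochromatin protein, read 369.8, 338 and 296 at P28-P32 and 188, 212, 190.0 and 180.0 at P18-P20, a change of 0.79. Ckmt1, mitochondrial creatine kinase, changed by 0.54 and Lonp2, a peroxisomal protease, by 0.64. Dguok, a mitochondrial nucleoside kinase, rose in both of its called probe sets (0.68 and 0.51), the first with a suffix for probes shared between transcripts. The smallest called change was 0.37, for Brk1, a subunit of the WAVE complex.

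Wild type over the same span had many more calls. There 1885 probe sets (15.2%) changed, 819 higher (6.59%) and 1066 lower (8.58%), and the median absolute change of bright probe sets was 0.17 in heterozygotes and 0.26 in wild type. Of the 105 heterozygous calls 75 had the same sign in wild type, and 49 were also called there, 43 in the same direction and 6 in the opposite one. These 43 were 41.0% of the heterozygous calls and 2.28% of the wild-type calls. Of the 1885 wild-type calls 1149 had the same sign in heterozygotes. Genes called in the same direction in both included Fgf13 (heterozygous -1.58, wild-type -2.43), Qdpr (heterozygous 1.08, wild-type 0.51), Ndrg1 (heterozygous 1.08, wild-type 0.55), L1cam (heterozygous -0.92, wild-type -1.14) and Cplx2 (heterozygous 0.77, wild-type 0.68). The wild-type count depended on how RNA quality and the title codes (a number and a letter in each sample title, meaning not given) were handled: it was 244 with the Gapdh 3-prime over 5-prime ratio as a covariate and 250 with the title code as a replicate block. The heterozygous count in these fits was 119 with the covariate and 80 with the block. In wild type the P18-P20 pools carried codes 1c, 1d, 2a and 2b, and the P28-P32 pools 1a and 1b. No wild-type code spanned the 2 ages, so block and age cannot be fully told apart there. The wild-type Gapdh ratios of the 2 ages did not overlap either, so covariate and age cannot be fully told apart there. Heterozygous codes 1a and 1b occurred at both ages. Immature neuron genes had 2 rises and 9 falls in wild type, voltage-gated channels 2 rises and 10 falls, and synaptic vesicle genes 4 rises and 11 falls.

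The change itself differed between genotypes for 641 probe sets (5.16%), 386 with a higher (3.11%) and 255 with a lower (2.05%) heterozygous change. Of the 105 heterozygous calls 33 were among them, 12 rises and 21 falls. The count of 641 was 1 with the Gapdh ratio as a covariate and 5 with the title code as a replicate block, where 1009 and 1687 probe sets kept an unadjusted p below 0.05. The same count was 379 without heterozygous P18 pool 1b, 973 without heterozygous P20 pool 1b, 273 without heterozygous P28 pool 1b, 357 without heterozygous P32 pool 1a, 398 without wild-type P18 pool 1c and 369 without wild-type P32 pool 1a. The Gapdh ratio moved with age in wild type as given above, so that covariate may also take out change with age. Its part in these differences was not tested gene by gene.

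For the genes with the smallest p of the difference, the earlier pools of the 2 genotypes were often apart. Actb had heterozygous geometric means of 199 at P28-P32 and 66.8 at P18-P20, while in wild type it read 112, 133, 95.5 and 150.3 at P28-P32 and 699.7, 628, 669 and 725 at P18-P20. Its heterozygous change exceeded the wild-type change by 4.07 (SE 0.44, adjusted p 6.89e-06). Gria1, an AMPA receptor subunit, differed between ages by 0.41 in heterozygotes and -0.66 in wild type, a difference of 1.07 (adjusted p 0.000512), while its brighter probe set gave -0.52 in heterozygotes and 0.49 in wild type. Arf3, a small GTPase of the Golgi, gave -0.16 in heterozygotes and -3.10 in wild type, and its 2 brighter probe sets gave differences of 0.86 and 0.17. Nfe2l1, a regulator of proteasome genes, gave -0.18 in heterozygotes and -1.82 in wild type, and its brighter probe set gave a difference of 0.19. Fbxw11 rose in heterozygotes (0.84) and fell in wild type (-0.68) in its called probe set, while its brighter one gave 0.18 in heterozygotes and 0.40 in wild type, a difference of -0.22. For Gria1, Arf3, Nfe2l1 and Fbxw11 the brighter probe sets thus gave differences that were smaller or of the other sign.

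In the other direction, Peg3, an imprinted zinc finger gene, fell in heterozygotes (-1.16, adjusted p 0.00769) and rose in wild type (0.91, adjusted p 0.00286). Its 2 other probe sets gave -0.12 and -0.00 in heterozygotes. The brighter Sox11 probe set gave -0.89 in heterozygotes and 1.20 in wild type, a difference of -2.09 (adjusted p 0.000512). At P18-P20 its geometric mean was 379.9 in heterozygotes and 148 in wild type. Nexmif, an X-linked gene of neurite growth, differed by -2.83, Klf7, a factor of axon growth, by -1.78, and Wdr26, a subunit of a ubiquitin ligase, by -1.17. Of 3 other Wdr26 probe sets, 1 gave -1.20 and the other two 0.13 and 0.17. Kcna1 differed between ages by -1.25 in heterozygotes and 0.63 in wild type, and Mef2c by -1.23 in heterozygotes and 0.19 in wild type. The genotype differences were -1.88 for Kcna1 and -1.42 for Mef2c, both called.

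Anp32a and Commd3 belong to the same set. Their differences were 2.02 (adjusted p 0.0305) and 2.38 (adjusted p 0.00473). At P28-P32 the geometric means of Anp32a were 284 in heterozygotes and 299 in wild type, and at P18-P20 they were 37 in heterozygotes and 158 in wild type. For Commd3 they were 62.4 in heterozygotes and 45.4 in wild type at P28-P32, and 12.2 in heterozygotes and 46.2 in wild type at P18-P20. The 4 wild-type P18-P20 pools of Anp32a were uneven, at 194, 38.4, 272 and 304, and 1 of them lay within the heterozygous range. The brighter Anp32a probe set gave a genotype difference of -0.18, with the opposite sign.

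**Figure D4:**
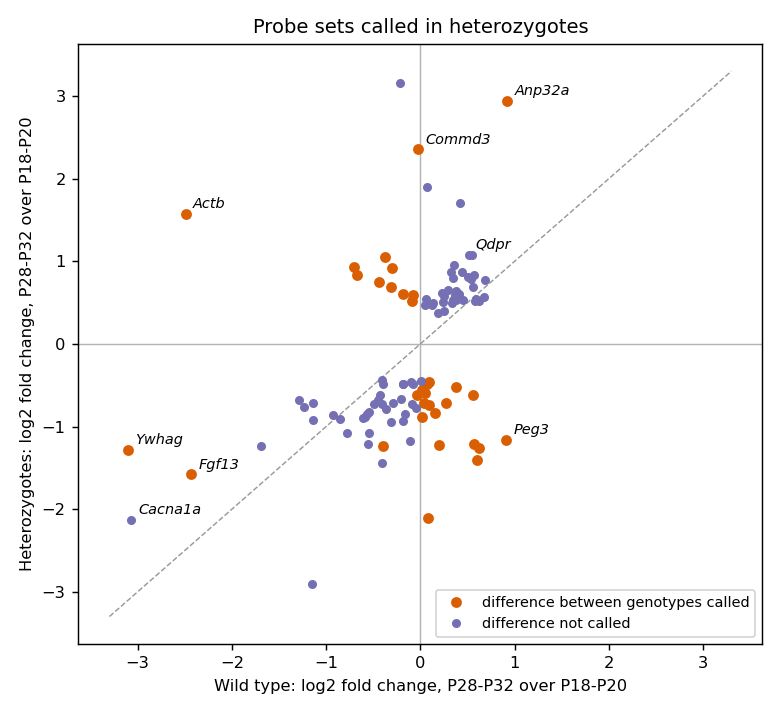
Log2 fold change (P28-P32 over P18-P20) in heterozygotes (vertical axis) and wild type (horizontal axis) of the 105 probe sets called in heterozygotes, with the dashed line marking equal change. Orange points are the 33 whose change differed between genotypes by the test, including Anp32a, Commd3, Actb and Peg3, and 43 points were called in the same direction in both genotypes.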

How the data were processed

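Each of the 30 arrays holds hippocampal RNA of 1 pool of 2 male pups. The authors deposited linear intensities, a single value for each probe set on each array, scaled to 1 level: array means without the extreme 2% at each end were 150.1. No source used here names the software. Values under 1 (1.68%) were set to 1 and log2 was taken, with no further normalization, so changes of dim probe sets depend on that floor. Tests used limma 3.58.1 in R 4.3.3 (lmFit, eBayes with an intensity trend, two-sided) on all 30 arrays with 1 mean per genotype and age range (P10, P15, P18-P20, P28-P32), adjusted by Benjamini-Hochberg over 12422 probe sets. All groups share 1 estimate of the spread. Arrays give no read depth, so their number limits the precision.

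Of the probe sets 10833 had 1 gene symbol in the platform annotation, 396 had several and 1193 had none, and only the first were named. Some called probe sets carry a suffix for probes shared between transcripts (Actb, Cacna1c and the first of Ndrg1 and of Dguok). Others carry one for probes shared within a sequence family (Sox11, Mtmr14, Adk and Psmb4). RefSeq (GRCm38.p6) gave current symbols, gene coordinates and promoters. The rule for named genes took the 12 largest called rises and falls among bright probe sets, 5 genes per direction for the genotype difference, and those members of described lists that moved most. In lists each gene was read from its brightest probe set. The members and lists were chosen with earlier results of these data known. The 1a minus 1b deviations of heterozygous pools correlated at -0.13 (P18 and P20), -0.29 (P18 and P28) and 0.13 (P20 and P28). These values gave no sign of pairing by title code in those pools. Wild type and the other codes were not examined. On simulated data with 200 changed probe sets of 12422, 35.8%, 82.1% and 98.5% of log2 changes of 0.5, 1 and 2 were recovered in the heterozygous comparison, and 9 of 153 calls were false. The changed probe sets were drawn from bright ones. Noise was independent and of equal spread in every pool, so no simulated pool stood apart as P18 pool 1b did. These rates do not cover such a pool or dim probe sets. Alternatives changed the floor, normalization, filter, groups, variance prior, array weights, RNA quality covariate, replicate block and pools.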

Additional observations from a re-analysis of the deposited data

Results flagged for a closer look

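Within the 4 heterozygous P18-P20 pools, 1 pool lay apart from the other 3 by Dixon's test for 12 of the 138 probe sets tested, and chance gives about 5%. P18 pool 1b was the odd one for 4 of them: Sox11 (651, brighter probe set), Rps19 (516), Grn (196) and Ssna1 (127). P20 pool 1b was the odd one for Gfap (223), Apod (492), Rasd1 (170.2), Dffa (101), Ndrg1 (483, second probe set), Nsmce4a (130.5) and Ipo8 (146), and P20 pool 1a for Pafah1b1 (1130.3). The Rps19 value of P18 pool 1b lies towards the P28-P32 values and the Grn value beneath the other earlier pools, so both narrow the gap between the ages, while the Ssna1 value widens it.

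The change between the ages differed between genotypes, by the test of the difference (limma, adjusted p below 0.05), for 22 of the probe sets named by rank or by that test. Of these, 10 had been named for the smallest p of that same test, so their calls add no separate evidence. Over all 12422 probe sets 641 (5.16%) were called. The heterozygous change exceeded the wild-type change for Actb by 4.07, Arf3 by 2.94, Commd3 by 2.38, Anp32a by 2.02, Ywhag by 1.82, Nfe2l1 by 1.64, Iglc1 by 1.64, Fbxw11 by 1.52, Acot8 by 1.43, Hk1 by 1.22, Gria1 by 1.07 and Fgf13 by 0.86. For Fgf13 both genotypes fell, wild type further. Ywhag did so in the dimmer of its 2 probe sets alone, and its brighter one gave 0.18 in heterozygotes and 0.20 in wild type. The heterozygous minus wild-type difference was -2.83 for Nexmif, -2.09 and -1.77 for the brighter and the called probe set of Sox11, -2.07 for Peg3, -2.01 for Mau2, -1.88 for Kcna1, -1.78 for Klf7, -1.42 for Mef2c, -1.17 for Wdr26 and -0.83 for Mapk8ip1. With the Gapdh 3-prime over 5-prime ratio as a covariate 1 difference remained called among all probe sets, and with the replicate block 5. Both fits carry the limit given above, that ratio and code cannot be fully told apart from age in wild type.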

How the results depend on the processing

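None of the 24 genes named by rank changed direction in any of the 18 alternatives. These genes were chosen as the largest called changes in the same pools. Where pools of the 2 ages did not overlap, leaving out a pool could not reverse the direction. The kept direction is therefore no separate evidence. Genes named from lists or for the genotype difference were not followed through the alternatives, apart from the list counts without P18 pool 1b. The 105 heterozygous calls became 172 without the lowest 40% of probe sets, 360 with array weights, 67 with a variance prior free of the intensity trend and 2 with the compared pools only, and leaving out each pool gave 21 to 247. They were 80 with the title code as a replicate block, 67 of them shared with the 105, and 110 without both P18 pools, 51 of them shared; the split of higher and lower calls was then 66 to 44, against 47 to 58 with all pools. Higher calls also outnumbered lower ones without P18 pool 1a (50 to 48), P20 pool 1b (54 to 50) or P28 pool 1a (11 to 10), with array weights (181 to 179), with 1 mean per age (79 to 78) and with the compared pools only (2 to 0). The 1885 wild-type calls became 244 with the Gapdh ratio as a covariate, 250 with the replicate block, 791 without P18 and 899 without P32, and leaving out each pool gave 1234 (without P32 pool 1a) to 1729. The 641 differences became 182 with the compared pools only, 1 with the Gapdh covariate, 5 with the replicate block, 223 without P18 and 118 without P32, and leaving out each pool gave 273 to 973. Samples were fewer in the settings that dropped pools. No wild-type title code spanned the 2 ages, as given above, so the wild-type and difference counts with the replicate block carry that limit. The wild-type Gapdh ratios of the 2 ages did not overlap either, so those counts with the Gapdh covariate carry the same limit. The cause of the other shifts was not tested.

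Of the 24 genes named by rank, 9 kept their call without P28 pool 1a, 13 without P32 pool 1a, 15 without P28 pool 1b, 16 without P20 pool 1b, 20 without P20 pool 1a, 21 without P18 pool 1a and 23 without P18 pool 1b. In the replicate block 18 kept it, with the Gapdh covariate 14, and with the compared pools only 2. Dim probe sets, near the floor, limit what can be said of Nf1 and of other genes below an intensity of 30.8.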

Other observations

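Of the 105 called probe sets 5 were dim. Eif4b, a translation initiation factor, read 11.8, 14.4 and 18.9 in heterozygous pools at P28-P32 and 0.91, 0.982, 1.64 and 4.62 at P18-P20. Camk2d, a calmodulin-dependent kinase, read 2.03, 1.54 and 7.1 at P28-P32 and 20.4, 13.8, 25 and 27.8 at P18-P20, a change of -2.90. Mgst2, a microsomal glutathione transferase, read 18.3, 18.1 and 19.2 at P28-P32 and 3.33, 8.34, 5.19 and 4.22 at P18-P20, Mcur1, a mitochondrial calcium uniporter regulator, 23.6, 24.7 and 27.6 at P28-P32 and 13.4, 12.4, 3.91 and 5.58 at P18-P20, and Il3, a blood cell cytokine, 4.34, 4.98 and 3.37 at P28-P32 and 8.51, 21, 20.8 and 28.5 at P18-P20. The Eif4b value was below 1 in both P18 pools, so its change of 3.15 depends on the floor.

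Choroid plexus signal was uneven among the heterozygous pools. Ttr, the thyroid hormone carrier made by choroid plexus, read 4158, 243 and 852 at P28-P32 and 998, 1413, 2217 and 1146 at P18-P20. Its change of -0.53 was not called (adjusted p 0.862). Blood genes reached their highest sum, 4914, in a P18-P20 pool.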
